A study of Mus musculus with 6 samples.

Results

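The 8 Pax genes described here, Pax1, Pax2, Pax3, Pax5, Pax6, Pax7, Pax8 and Pax9, encode transcription factors that share the paired DNA-binding domain. Each gene was represented by a fixed interval of the mm9 mouse genome, and every H3K27me3 call overlapping an interval was taken. The intervals held 80 of the 54748 merged MACS2 regions of the series and 56 of its 36868 merged regions of hiddenDomains bins. In single libraries they held 46 to 68 MACS2 peaks and 881 to 1048 bins. The intervals lie on the chromosomes that carry the genes in RefSeq (GRCm38.p6) in all 8 cases. No mm9 annotation was used here, so calls are placed by their distance from the start of the interval and not by exon, intron or transcription start.

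H3K27me3, trimethylation of lysine 27 of histone H3, was mapped by chromatin immunoprecipitation and sequencing with the antibody ab6002 in spermatogenic cells of 6-week-old mice of mixed background. Controls carried MvhCre with 1 floxed and 1 wild-type Ezh2 allele (MvhCre;Ezh2fl/+, 2 libraries), and mutants carried MvhCre with floxed alleles only (MvhCre;Ezh2fl/fl, 2 libraries). All animals thus carried the Cre, whose driver Mvh is a germ cell gene, and the controls were heterozygous for the floxed allele. Percoll separation left cells of which 90% were spermatogenic by microscopy, per the labels, with no sorting by stage stated. The labels do not say whether each library had its own animals, so p-values measure only the spread between these libraries, which may be technical. Loss of Ezh2 and the labelled cell type could not be checked against expression here, since peak lists hold none. H3K27me3 calls from the remaining cells cannot be told apart from those of germ cells.

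Polycomb repressive complex 2 (PRC2) lays down H3K27me3 through EZH2 or its paralog EZH1, and the mark accompanies the silencing of developmental regulators. Pax genes are well-known Polycomb targets. They direct organ formation in the embryo and are silent in most adult tissues that do not depend on them. By sequence they form subgroups, of which Pax3 and Pax7 act in neural crest and muscle precursors, Pax2, Pax5 and Pax8 in kidney, midbrain, B cells and thyroid, Pax1 and Pax9 in the vertebral column, thymus and teeth, and Pax6 in the eye, brain and pancreas.

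Polycomb domains in mammals commonly form over DNA rich in the dinucleotide CG, so the sequences upstream of the genes are shown as context. RefSeq (GRCm38.p6) listed 10 promoters for 7 of the 8 genes, with 3 at Pax2 and 2 at Pax6, so they are not 10 separate genes. Of these 10, 7 held at least 10 CG dinucleotides in the 250 bases before the start, against 37.8% of all 32817 promoters in the table. The 250 bases are printed 5′ to 3′ for Pax6 and Pax8, the intervals with the largest and the smallest covered share, and for the Pax2 promoter with the most CG. Capitals mark CG dinucleotides.
Pax6, promoter 1 in the table: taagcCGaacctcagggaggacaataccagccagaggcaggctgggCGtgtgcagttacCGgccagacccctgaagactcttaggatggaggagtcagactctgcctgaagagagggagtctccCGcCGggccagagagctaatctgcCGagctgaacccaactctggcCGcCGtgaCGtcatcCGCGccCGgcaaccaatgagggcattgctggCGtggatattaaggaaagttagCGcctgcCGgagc
Pax8: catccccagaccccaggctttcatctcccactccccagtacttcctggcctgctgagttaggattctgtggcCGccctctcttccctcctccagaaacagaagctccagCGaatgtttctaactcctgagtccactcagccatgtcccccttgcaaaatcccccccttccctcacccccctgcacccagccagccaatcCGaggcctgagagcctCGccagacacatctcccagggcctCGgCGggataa
Pax2, promoter 3 in the table: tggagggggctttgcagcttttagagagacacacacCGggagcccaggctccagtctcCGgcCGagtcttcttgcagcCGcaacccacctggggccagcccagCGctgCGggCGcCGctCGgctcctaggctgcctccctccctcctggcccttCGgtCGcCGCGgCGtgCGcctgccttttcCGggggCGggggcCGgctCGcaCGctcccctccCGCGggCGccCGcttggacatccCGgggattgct
The Pax6 sequence held 15 CG and the Pax8 sequence 6, equal to the median of the table. Not all members paired more CG with a larger covered share. The Pax9 promoter held 7 CG, with 41.8% of its interval covered by MACS2 peaks in control 1. The Pax5 promoter held 19, with 17.4% covered. The Pax2 sequence held 25, and 89.3% of promoters in the table held fewer. Whether the calls cover these very bases was not determined, because the table and the calls use different builds.

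Every Pax interval carried H3K27me3 calls in every library, but the layout differed between genes. Pax6 was 1 nearly unbroken block, Pax1 and Pax9 held compact blocks, Pax2, Pax3, Pax5 and Pax7 held a broad block with shorter outlying peaks, and Pax8 held little. Calls were read from 2 lists per library, the peaks of MACS2 and the 200-bp bins of hiddenDomains, a caller meant for broad marks. The covered share of the interval by MACS2 in control 1 ran from 8.26% at Pax8 to 61.0% at Pax6. Intervals were of unequal length, from 40 kb at Pax1 to 210 kb at Pax5, and the share depends on where their borders were set.

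**Figure D1:**
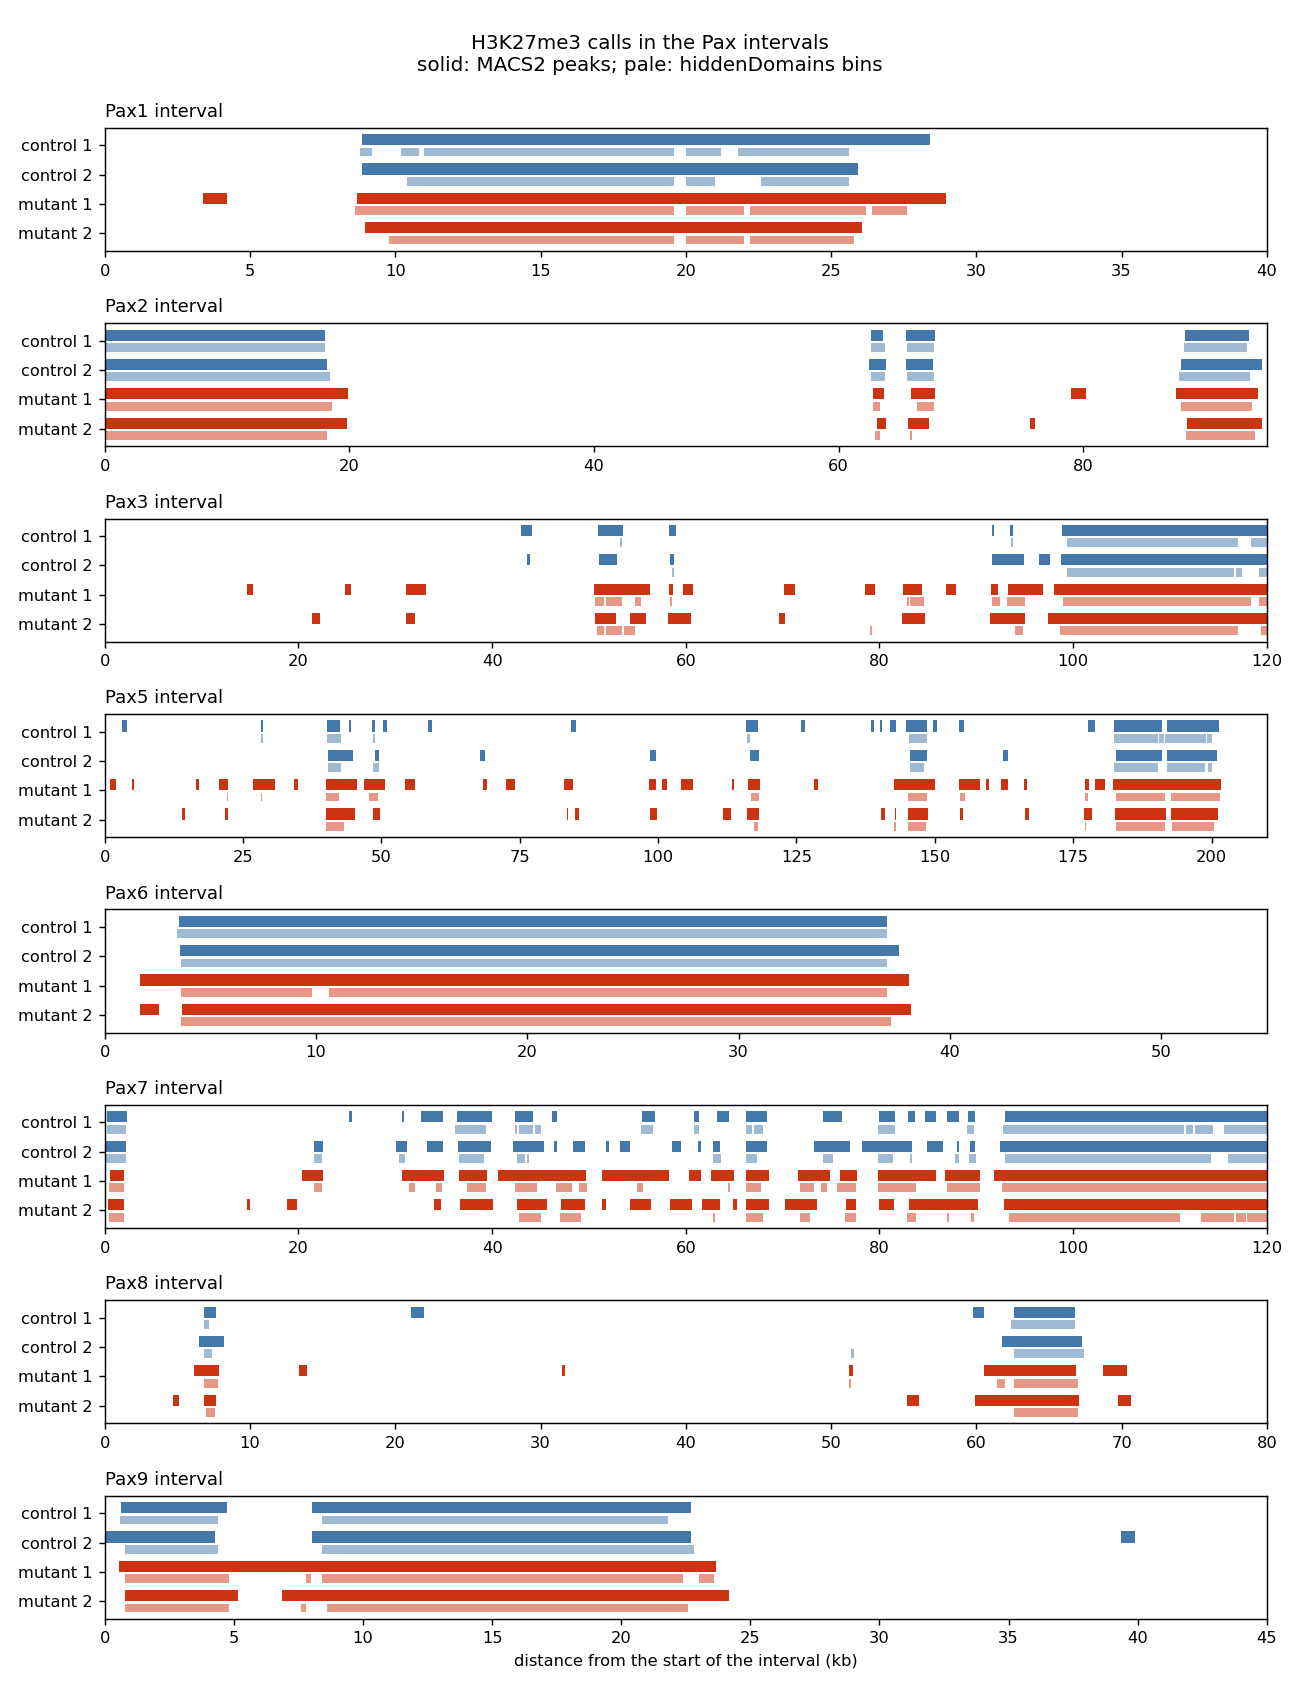
Calls in the 8 Pax intervals, with distance from the start of each interval in kb on the horizontal axis and 1 row per library. Solid bars are MACS2 peaks and pale bars hiddenDomains bins, in blue for controls and red for mutants. The Pax6 block holds 33.5 and 34.0 kb of peaks in the controls versus 36.4 and 35.4 kb in the mutants, whereas the Pax5 and Pax7 intervals hold many short peaks beside their broad block.

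The comparison asked whether the Pax loci carry the mark over a different length when both Ezh2 alleles are floxed. Summed over the 8 intervals, MACS2 peaks spanned 218 and 223 kb in the controls versus 307 and 251 kb in mutants 1 and 2. The means were 221 ± 3.66 kb (SD, n = 2) and 279 ± 39.6 kb (SD, n = 2), a difference of 57.7 kb or 26.1% (exact permutation p = 0.333, two-sided, the smallest that 2 libraries against 2 can give). The difference was 29.7 kb without mutant 1 and 85.7 kb without mutant 2. Bins covered 179 and 176 kb in the controls versus 210 and 180 kb in the mutants, a difference of 17 kb or 9.56% (exact permutation p = 0.333, two-sided). That difference was 2.20 kb without mutant 1 and 31.8 kb without mutant 2. Both mutants were above both controls in either sum, mutant 2 only narrowly so in the bins.

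Read depth is unknown, and the libraries differed in total covered length. MACS2 peaks took up 67.3 and 69.8 Mb of the genome in the controls versus 82.0 and 64.4 Mb in the mutants, and bins 53.4 and 54.3 Mb against 50.9 and 44.6 Mb. The Pax intervals took a larger share of all called bases in the mutants. Such a share also rises when fewer bases are called elsewhere. Bins covered 180 kb of the intervals in mutant 2 and 179 kb in control 1, whose totals differed. For peaks the share was 0.324% and 0.320% in the controls against 0.374% and 0.389% in the mutants. For bins it was 0.336% and 0.325% against 0.412% and 0.403%. Neither list overlapped between genotypes in this share (exact permutation p = 0.333, two-sided, for the covered lengths scaled to equal totals, with differences of 42.2 kb for peaks and 39.2 kb for bins).

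With MACS2, 7 of the 8 intervals were covered over a greater length in both mutants than in both controls, and Pax1 overlapped. Over the genome, 21.4% of the rows tested (the 8 intervals and every 100-kb tile outside them with a mean of at least 1 kb covered) showed this order, and 35.1% the opposite order. Densely covered rows, with a mean of at least 10 kb, showed it more often, in 37.1% of cases against 21.8% in the opposite order, and 6 of the 7 Pax intervals among them did. With bins, 3 intervals (Pax1, Pax3 and Pax9) had both mutants above both controls and 1 (Pax2) had both below, against 7.76% and 48.1% of all rows. In dense rows those shares were 14% and 43.5%. The tiles have a fixed length of 100 kb, whereas the intervals range from 40 to 210 kb. No share was computed over stretches of like length. With bins scaled to equal totals all 8 intervals had both mutants above, against 25.3% of all rows and 48.5% of dense ones, while 30.2% and 14.1% had both below. With peaks scaled in the same way, 5 of 8 did, against 19.6% and 33.5%, a setting chosen after seeing the data, and 37.9% and 26.8% had both below. Pax3 and Pax9 showed this order under both callers before scaling. Scaling to equal totals treats the total marked length as equal between libraries, which was not tested. It raises both mutants in the bins, where their totals were lower, and would remove a true difference in total length.

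**Figure D2:**
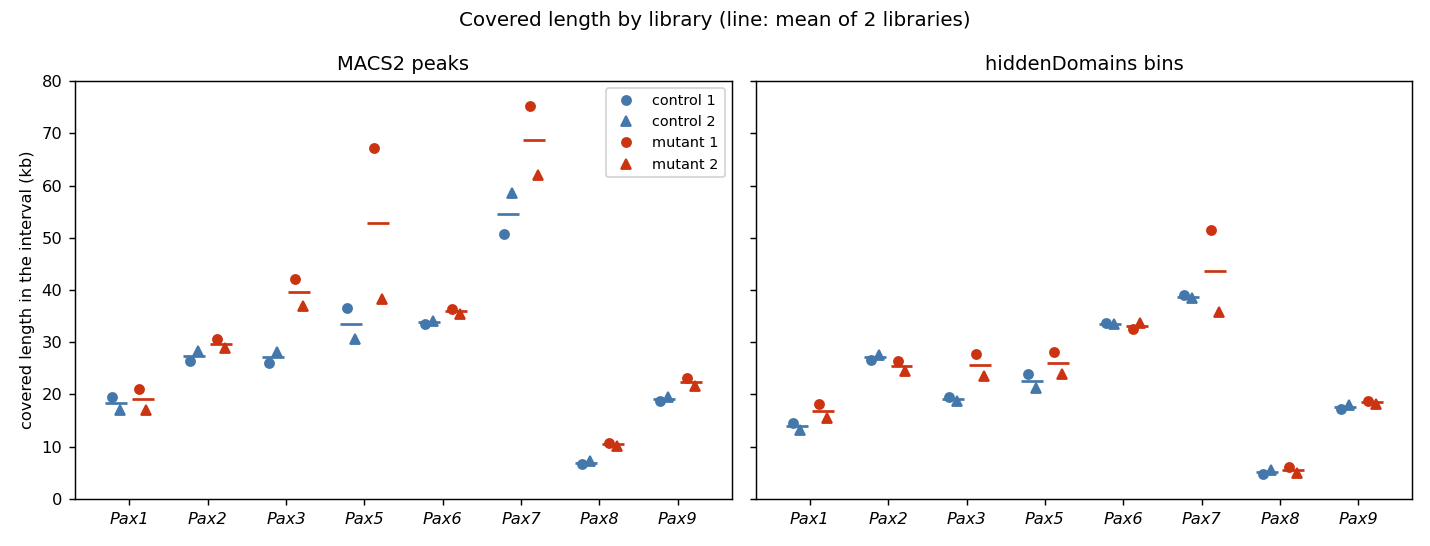
Covered length in kb (vertical axis) of each Pax interval by MACS2 peaks (left) and hiddenDomains bins (right). Points are libraries, blue for controls and red for mutants, and lines are means of 2 libraries. Pax3 stands apart by genotype in both panels, with 26.1 and 28.2 kb of peaks in the controls versus 42.1 and 37.0 kb in the mutants.

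Each interval was then tested beside the rest of the genome with limma on log2(kb covered by bins + 1), adjusted by Benjamini-Hochberg over all 9167 rows. None of the 8 intervals passed the threshold of 0.05 in that fit, and neither did any other row (0%). At an unadjusted p under 0.05 there was 1 Pax interval, Pax3, which was higher in the mutants, against 227 rows higher (2.48%) and 2532 rows lower (27.6%) over all. With the bins scaled to equal totals the same counts were 818 (9%) and 1287 (14.2%), and 5 Pax intervals were higher. The median log2 difference over all rows was -0.15 and that of the Pax intervals 0.12, where mutant minus control is meant. After scaling those medians were -0.01 and 0.28. In the peak fit, where no row passed adjustment either, they were -0.05 and 0.27, and 2 Pax intervals (Pax3 and Pax8) had an unadjusted p under 0.05, beside 8.95% of rows that were higher and 12.2% that were lower. Among dense rows, with a mean of at least 10 kb and 7 of the Pax intervals, the gaps were smaller. With bins the medians there were -0.07 over all dense rows and 0.15 over the Pax intervals. They were 0.10 and 0.32 with scaled bins, and 0.09 and 0.22 with peaks. The log2 differences understate changes where little is covered, because of the pseudocount of 1 kb.

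**Figure D3:**
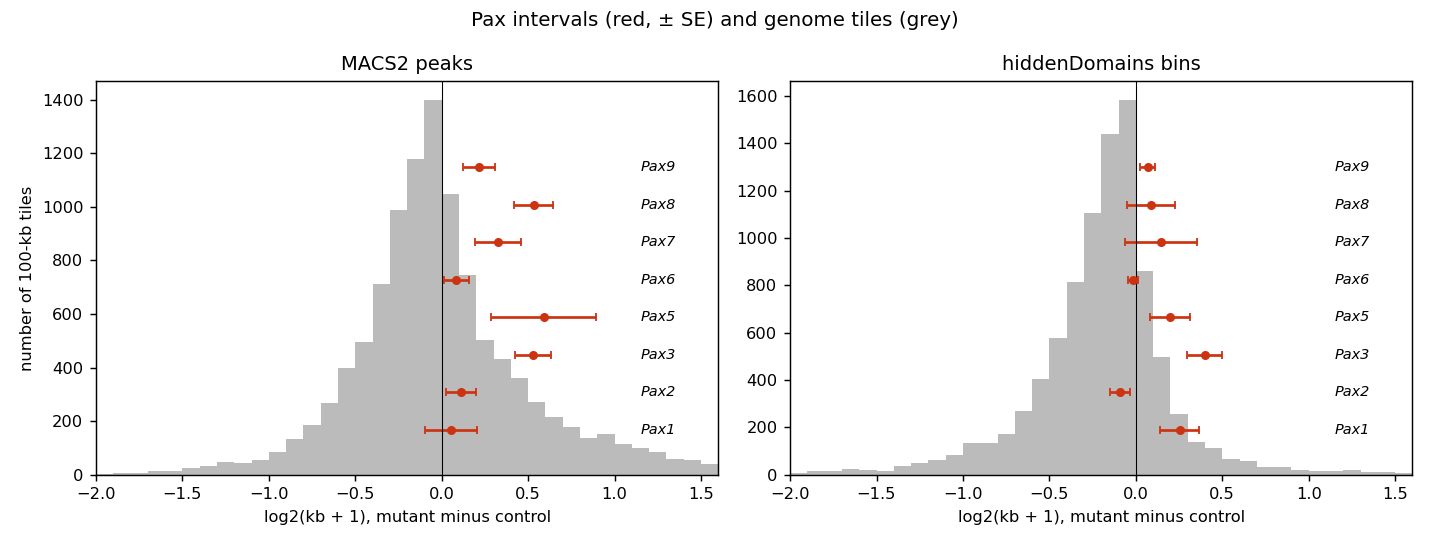
Log2 difference in covered length, mutant minus control, on the scale log2(kb + 1), for the 8 Pax intervals (red points with SE from limma, placed at arbitrary heights) and for the 100-kb tiles of the genome (grey bars, number of tiles on the vertical axis). The axis is cut at -2 and 1.6. With bins the Pax intervals lie between -0.09 and 0.40. The median of all rows is -0.15 and that of rows with a mean of at least 10 kb is -0.07.

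Pax3, a regulator of neural crest and muscle precursors, was the only interval to pass the adjusted test in any of these fits (mm9 chromosome 1, 78085001 to 78205000). MACS2 peaks spanned 26.1 and 28.2 kb of it in the controls versus 42.1 and 37.0 kb in the mutants, and bins 19.6 and 18.8 kb against 27.8 and 23.6 kb. The groups did not overlap under either caller. In the fit on bins the log2 difference was 0.40 (SE 0.10, limma adjusted p = 0.13), and 0.55 relative to the median of all rows. Without each library in turn it ranged from 0.28 to 0.51. With equal totals it was 0.57 (SE 0.08, limma adjusted p = 0.0239), which passed the threshold together with 1.9% of rows that were higher and 3.75% that were lower in the mutants. The adjusted p of the fit on peaks was 0.141 and that on scaled peaks 0.0682, where 3.7% of rows passed as higher and 2.41% as lower. In that scaled peak fit 4 Pax intervals had an unadjusted p under 0.05, against 11.3% of rows that were higher and 13.8% that were lower.

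The Pax3 block itself reached past the end of the interval. The merged region ran from 78176418 to 78216881 and its widest single peak measured 32.8 and 25.9 kb in the controls versus 33.7 and 34.4 kb in the mutants. Shorter peaks before this block also differed in number and length. The interval held 6 peaks in each control, 13 in mutant 1 and 9 in mutant 2. The region from 78135511 to 78141303 held 2.59 and 1.82 kb of peaks in the controls against 5.79 and 3.79 kb in the mutants, and bins covered 0.2 and 0 kb of it against 3.2 and 3.6 kb. Both Pax3 regions of bins called in the mutants alone lay within it, from 78135601 to 78136600 and from 78138601 to 78140400. Of the 6 MACS2 regions of the family called in both mutants and neither control, 3 lay here. They spanned 78116077 to 78118170, 78154615 to 78156241 and 78167363 to 78169654, and the last was the only one of them with bins, 1.6 kb in mutant 1. The 1 region of the family called in both controls and neither mutant also lay here, from 78127939 to 78129096, with 1.16 and 0.273 kb of peaks and no bin in any library.

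Pax7, which maintains muscle stem cells, had the greatest peak coverage of the 8 in every library, at 50.6 and 58.5 kb in the controls versus 75.3 and 62.1 kb in the mutants (chromosome 4, 139280001 to 139400000). Bins covered 39.0 and 38.4 kb against 51.4 and 35.8 kb, so mutant 2 lay below both controls by that caller and mutant 1 far above. The bin difference of 4.90 kb became -2.90 kb without mutant 1 (limma log2 difference 0.15, SE 0.21, adjusted p = 0.67 with all libraries). The broad block of Pax7, merged from 139371862 to 139401152, had a widest peak that overlapped between genotypes, at 27.6 and 28.7 kb in the controls versus 28.5 and 27.8 kb in the mutants. The stretch before it was broken into short peaks in every library. Of its 14 merged regions, 6 had more peak coverage in both mutants than in both controls, 1 had less and 7 overlapped. How often regions of the genome show this order was not counted. Beside their widest region, Pax3 had 5 of 11 regions with more and 1 with less, and Pax5 had 4 of 32 with more. Pax8 had 1 of 8 with more, and Pax2 had 2 of 5 with less and 0 with more. The 1 Pax7 region with less ran from 139280060 to 139282296, with 2.09 and 2.09 kb against 1.45 and 1.59 kb. In the merged region from 139320628 to 139329685, peaks spanned 2.41 and 4.84 kb in the controls versus 9.06 and 5.58 kb in the mutants, and bins 2.2 and 1.0 kb against 4.49 and 4.4 kb. In the one from 139316326 to 139320082, bins went the other way, with 3.08 and 2.6 kb against 2.0 and 0 kb. No Pax7 region was specific to a genotype by MACS2, while 3 of its 19 regions of bins were called in both mutants and neither control, from 139326601 to 139329800, 139351801 to 139353200 and 139355601 to 139357600. Both controls had peaks in the first and the last of these, and neither had in the other.

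Pax2, a regulator of kidney and midbrain development, had 4 marked regions that were called in all libraries (chromosome 19, 44820001 to 44915000). Beside them lay a short peak of 1.21 kb in mutant 1 alone and another of 0.411 kb in mutant 2 alone, neither with bins. Peaks spanned 26.5 and 28.4 kb in the controls versus 30.6 and 28.8 kb in the mutants, while bins covered 26.6 and 27.6 kb against 26.4 and 24.4 kb. The callers thus ordered the genotypes oppositely, and the limma log2 difference on bins was -0.09 (95% interval -0.27 to 0.09, adjusted p = 0.37) but 0.08 with equal totals. The widest region began before the interval and ran from 44813323 to 44839896, with a widest peak of 24.2 and 24.4 kb in the controls versus 26.6 and 26.0 kb in the mutants. Its right edge lay at 18.0 and 18.2 kb from the interval start in the controls and at 19.9 and 19.8 kb in the mutants. Both short inner regions were covered less by bins in the mutants. The one from 44885522 to 44887904 had 2.2 and 2.2 kb of bins in the controls versus 1.4 and 0.2 kb in the mutants, and the one from 44882512 to 44883892 carried 1.2 and 1.2 kb against 0.6 and 0.4 kb. The region at the far end, which ran from 44907592 to 44914633, carried bins over 5.2 and 5.8 kb against 5.8 and 5.6 kb.

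Pax5, the B-cell commitment factor, had the longest interval and, by MACS2, the smallest share of bases called in all libraries (chromosome 4, 44530001 to 44740000). Peaks spanned 36.6 and 30.5 kb in the controls versus 67.2 and 38.3 kb in the mutants. Mutant 1 was far above the rest, and the difference of 19.2 kb became 4.74 kb without it. Bins covered 24.0 and 21.2 kb against 28.2 and 24.0 kb, where mutant 2 equalled control 1 (limma log2 difference 0.20, SE 0.12, adjusted p = 0.36). The broad block near the end of the interval, merged from 44712166 to 44731794, overlapped between genotypes in covered length, with 18.0 and 17.4 kb of peaks in the controls versus 19.6 and 17.7 kb in the mutants. A short gap divided its peaks in every library except mutant 1, so the widest single peak was 19.6 kb there and 9.23, 9.01 and 9.22 kb in controls 1 and 2 and mutant 2. Of the 33 merged Pax5 regions, 18 were called in 1 library alone. The 2 regions specific to mutants, from 44550721 to 44552280 and from 44696066 to 44697016, held at most 0.2 kb of bins in any library. By bins the regions called in both mutants and neither control were others, from 44646801 to 44648200, where both controls had peaks, and from 44707201 to 44707600, where neither had.

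Pax8, a thyroid and kidney regulator, was covered over the shortest length (chromosome 2, 24265001 to 24345000). Peaks spanned 6.61 and 7.23 kb in the controls versus 10.7 and 10.2 kb in the mutants, a mutant to control ratio of 1.51 with no overlap. Bins covered 4.8 and 5.6 kb against 6.2 and 5.0 kb, where the genotypes overlapped (limma log2 difference 0.09, SE 0.14, adjusted p = 0.70). In the fit on peaks the log2 difference was 0.53 (SE 0.11, limma adjusted p = 0.144). The main peak lay within the merged region from 24324795 to 24332262 and was 4.18 and 5.51 kb wide in the controls versus 6.35 and 7.14 kb in the mutants. It reached further towards the start of the interval in the mutants, with left edges at 60.5 and 59.9 kb against 62.6 and 61.8 kb, whereas its right edges overlapped. The region from 24333715 to 24335667 was called in both mutants and neither control, with 1.66 and 0.930 kb of peaks and no bins.

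Pax1, which patterns the vertebral column, was the interval whose peaks did not separate the genotypes (chromosome 2, 147175001 to 147215000). Peaks spanned 19.6 and 17.1 kb in the controls versus 21.1 and 17.1 kb in the mutants. Bins covered 14.6 and 13.2 kb against 18.2 and 15.4 kb, with both mutants above (limma log2 difference 0.25, SE 0.11, adjusted p = 0.25). The peaks formed a block from 147183695 to 147203951, beside which mutant 1 alone had a short peak of 0.833 kb. The left edge of the block lay between 8.69 and 8.96 kb from the interval start in all libraries, and 80.4% of the bases called in any library were called in all 4.

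Pax9, a paralog of Pax1 needed for teeth and thymus, had a block that MACS2 split into 2 pieces in every library except mutant 1 (chromosome 12, 57780001 to 57825000). Peaks spanned 18.8 and 19.5 kb in the controls versus 23.1 and 21.7 kb in the mutants, and bins 17.2 and 18.0 kb against 18.8 and 18.2 kb. The groups did not overlap under either caller, with differences of 3.25 kb for peaks and 0.900 kb for bins (limma on bins log2 difference 0.07, SE 0.04, adjusted p = 0.38). The widest peak was 14.7 kb in both controls, 23.1 kb in mutant 1, where the pieces were joined, and 17.3 kb in mutant 2. Its left edge lay at 8.01 and 8.03 kb in the controls and at 0.561 and 6.86 kb in the mutants, and its right edge at 22.7 and 22.7 kb against 23.7 and 24.2 kb. Bins did not fill the gap, since both mutants had only 0.2 kb of bins in the stretch from 57787601 to 57788000 that controls lacked.

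Pax6, the eye and forebrain regulator, was the most uniform (chromosome 2, 105495001 to 105550000). Bins covered 33.6 and 33.4 kb in the controls versus 32.6 and 33.6 kb in the mutants. The limma log2 difference on bins was -0.02 (95% interval -0.11 to 0.08, adjusted p = 0.74) and 0.15 with equal totals. Peaks covered 33.5 and 34.0 kb against 36.4 and 35.4 kb. All libraries shared 1 merged region from 105496651 to 105533163, and 91.4% of its peak bases within the interval and 96.4% of its bin bases were called in all 4 libraries. The right edge of the peak lay 0.787 kb further out in the mutants on average, with no overlap.

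Most Pax bases called in the controls were called in the mutants too. Among the 80 MACS2 regions, 28 (35%) had a peak in each of the 4 libraries, 1 (1.25%) in both controls and neither mutant, and 6 (7.5%) in both mutants and neither control. Another 36 (45%) were called in 1 library alone. The controls-only count was 2 without control 1, 7 without control 2 and 4 without mutant 1, and the mutants-only count was 9 without control 1, 18 without mutant 1 and 28 without mutant 2, where fewer libraries have to meet the pattern. Over the genome with all 4 libraries, 36.4% of regions were called in every library, 4.9% in controls only, 5.97% in mutants only and 38.1% in 1 library alone. No genome share was computed with a library left out. With bins, 21 of 56 regions were called in all libraries, 0 in controls only, 8 in mutants only and 16 in 1 library alone, against 43.4%, 7.53%, 2.8% and 35.5% of all regions. By base pairs, 54.0% of the 344 kb called by MACS2 in any library were called in all 4, and 40.2% over the genome. Bases called in both controls and neither mutant were 2.16 kb in the Pax intervals, or 0.627% against 5.18% over the genome. Bases called in both mutants and neither control were 25.6 kb, or 7.46% against 4.94%. For bins the shares of control-only bases were 1.49% against 8.50%, and of mutant-only bases 5.98% against 2.24%. These are shares of libraries of unequal totals, and they are given as a description. The genome shares take in all called bases, with no separate background of broad regions.

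**Figure D4:**
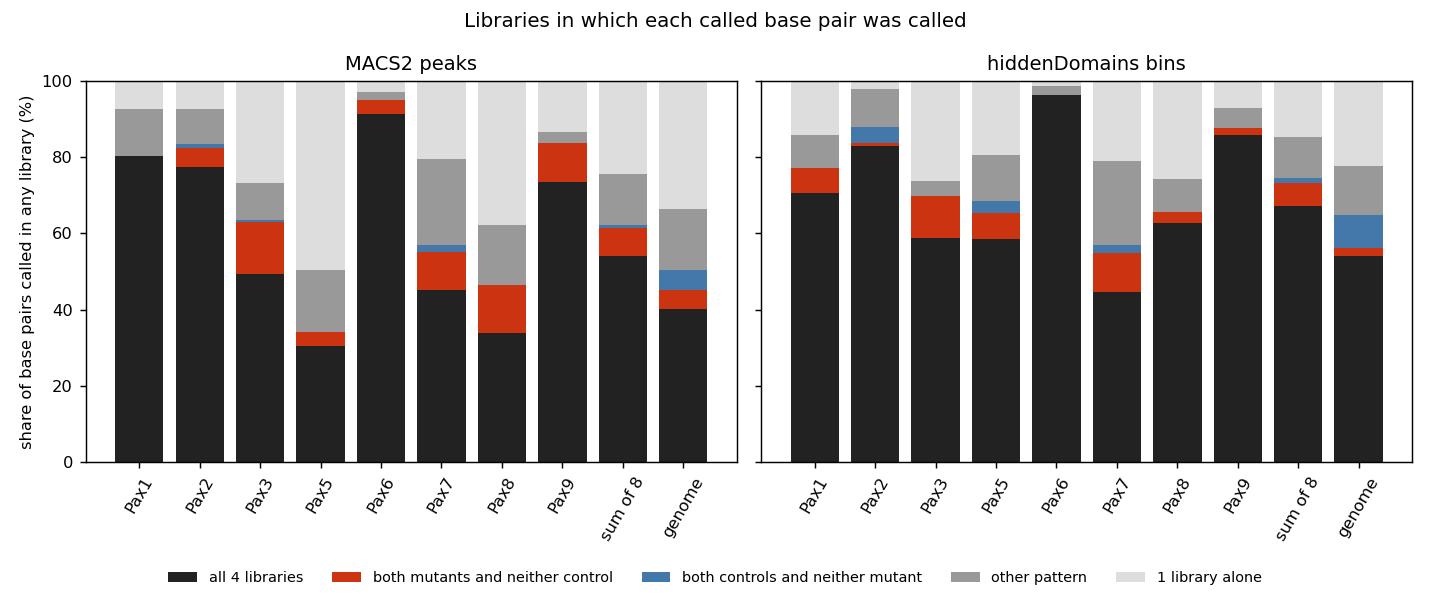
Share of the base pairs called in any library (vertical axis, percent) by the set of libraries that called them, for each Pax interval, their sum and the whole genome, with MACS2 peaks on the left and hiddenDomains bins on the right. Black is called in all 4 libraries, red in both mutants only and blue in both controls only. Black reaches 91.4% at Pax6 and 30.3% at Pax5 with peaks.

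Most mutant-only bases lay in regions that a control shared. Of the 25.6 kb of MACS2 bases called in both mutants and neither control, 82.5% belonged to regions also called in at least 1 control, and 4.48 kb formed separate regions. Over the genome the share was 64.1%. For bins the order was the other way, with 61.8% of 13.6 kb in the Pax intervals, 5.2 kb in separate regions, and 65.7% over the genome. Pax7 and Pax3 contributed 8.63 and 6.64 kb of the mutant-only peak bases, and 6 and 3.4 kb of the mutant-only bin bases. Of the mutant-only peak bases, 40.3% carried bins in mutant 1 and 19.97% in mutant 2. Of the mutant-only bin bases, 57.3% and 61.3% lay in peaks of controls 1 and 2, so the callers often differed on which bases were mutant-only. Over all peak bases in the intervals, bins were present on 80.7% and 77.8% in the controls and on 68.0% and 70.9% in the mutants. A smaller share of peak bases thus carried bins in both mutants than in both controls. This share was not computed over the genome, so it is not shown to be particular to the Pax intervals. Genome totals differed in the same direction. Bins took up 53.4 and 54.3 Mb beside 67.3 and 69.8 Mb of peaks in the controls. In the mutants they took up 50.9 and 44.6 Mb beside 82.0 and 64.4 Mb. Between 98.1% and 99.4% of bin bases lay in peaks in every library.

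The edges of the widest peak in each interval were also compared, and their count and its alternatives were added after seeing the data. Of 16 edges, 8 lay further out in both mutants than in both controls and 0 further in, among shared regions of the genome of at least 5 kb mean width where 21.6% of edges lay further out and 23.7% further in. The 8 include the left edge at Pax5, where the widest peak was the other piece of the block in the controls. The remaining 7 were the right edges at Pax2 and Pax6, the left edge at Pax8 and both edges at Pax3 and Pax9. At the right edge of Pax3 mutant 1 and control 1 almost coincided, at 131.66 and 131.64 kb from the interval start, and control 2 ended at 124.6 kb. Without mutant 2, 14 edges lay further out, a setting for which no genome share was computed. With bins joined across gaps of up to 1 kb, 3 edges lay further out and 1 further in, against 10.3% and 21.5%. The widest peak was wider in both mutants at 5 of 8 intervals (Pax2, Pax3, Pax6, Pax8 and Pax9), against 23.4% of shared regions, with 23.7% narrower. With bins it was so at 2 (Pax3 and Pax9), against 12.7% and 28.2%. Most widest Pax peaks were far wider than the 5 kb minimum, and no background of regions of like width was computed.

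**Figure D5:**
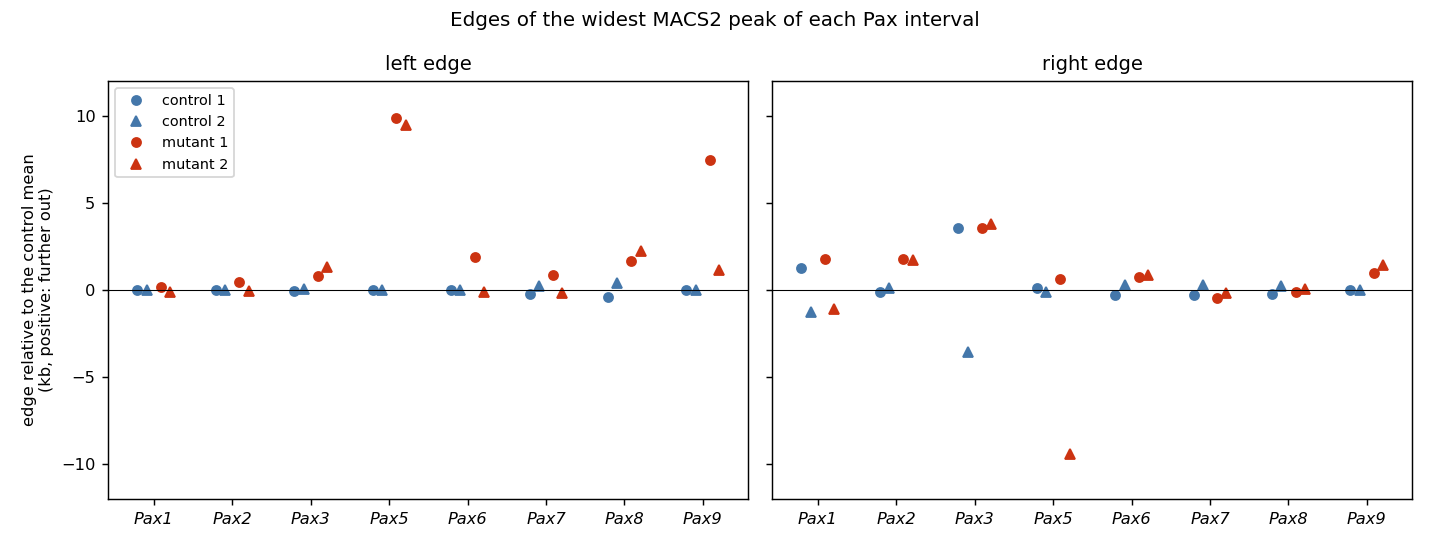
Position of the left and right edges of the widest MACS2 peak of each Pax interval relative to the mean of the controls, in kb, with positive values further out. Circles are replicate 1 and triangles replicate 2, blue for controls and red for mutants. At Pax2 and Pax9 the right edges of both mutants lie beyond both controls, by 1.76 and 1.21 kb on average, the Pax3 value of 3.68 kb rests on control 2, and the large Pax5 values come from a change in which piece was the widest.

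Pairs of libraries overlapped more in the Pax intervals than over the genome. The Jaccard index, the bases shared by a pair of libraries over those covered by either, was 0.780 between the controls for peaks in the intervals and 0.703 over the genome. Between the mutants it was 0.700 and 0.592. Between genotypes it ranged from 0.641 to 0.746 in the intervals and from 0.545 to 0.606 over the genome. For bins the index was 0.881 for the control pair, 0.804 for the mutant pair and 0.770 to 0.801 across genotypes in the intervals. Over the genome these were 0.800, 0.730 and 0.660 to 0.695. The genome values take in all called bases, short isolated calls included, and no index was computed for broad regions alone. The deposited display score of the bins stood at its highest level of 1000 for 94.5% to 96.0% of the Pax bins, with overlap between the genotypes. Over all bins of a library the share was 93.02% and 93.10% in the controls, above the 91.0% and 92.4% of the mutants.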

How the data were processed

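Per the submitters' processing notes, Bowtie, SAMtools and bedtools were used with mm9. Per the file headers, the authors deposited MACS2 peaks for each library, as positions only, and hiddenDomains bins of 200 bp with a display score of 4 levels. The sources used here give no caller thresholds, control tracks or read depth, so calls are not normalised for depth, and a deeper library can give more and wider calls. The inputs were not analysed here.

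Calls that touch were joined and coverage was counted in base pairs clipped to the intervals. The intervals and every 100-kb tile outside them with a mean of at least 1 kb were fitted with limma 3.58.1 (R 4.3.3, trended empirical Bayes) on log2(kb + 1), with Benjamini-Hochberg adjustment. Merged regions are the union of the 4 lists. Tested on 9167 simulated rows, this fit recovered 96% of the 100 rows given a log2 change of 1 and 100% of the 100 given a change of 2, and made 9 false calls; simulated noise followed the mean only, so these rates do not give the power over real rows. All 8 genes are named, with the widest MACS2 region of each interval and each region called in both libraries of 1 genotype only; other regions and edges were picked after seeing their values. The members and lists were chosen with earlier results of these data known. Same-numbered libraries did not deviate together (correlation 0.04 over rows with bins), and nothing in the labels pairs them. Promoter sequences come from RefSeq, GRCm38.p6.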

Additional observations from a re-analysis of the deposited data

How the results depend on the processing

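Libraries of the same number share only that number. With a replicate block the summed differences stayed at 17 kb for bins and 57.7 kb for peaks (exact permutation p = 0.5, two-sided, the smallest possible). In limma with that block 0 intervals passed, and neither did any other row. There, 3 intervals in place of 1 had an unadjusted p under 0.05, all higher in the mutants. Over all 9167 rows, 202 were higher and 1956 lower at that level. Leaving out each library in turn gave 2.20 to 31.8 kb for bins, 29.7 to 85.7 kb for peaks, 0 intervals passing, 29 to 32 regions called in every library, 1 to 7 in controls only, 7 to 28 in mutants only, 5 to 7 intervals with a wider widest peak in the mutants, and 8 to 14 edges further out. Genome shares of regions, widths and edges were not computed with a library left out. The limma fits with 1 library in an arm assume that it varies like the others. Leaving out a library turned the direction at Pax1 for peaks (-1.19 to 2.79 kb, and -0.46 kb without control 2). For bins it turned at Pax6 (-0.9 to 0.1 kb, log2 -0.0381 to 0.0042), Pax7 (-2.9 to 12.7 kb, log2 -0.11 to 0.40) and Pax8 (-0.2 to 1 kb, log2 -0.0443 to 0.22, and -0.0060 without control 1).

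With totals made equal 1 interval passed (Pax3) in place of 0. With 50% of a region required, 15 regions in place of 28 were called in every library and 0 in place of 1 in controls only. With bins, 0 regions were in controls only, 2 intervals had a wider widest stretch and 3 edges lay further out. Equal totals turned Pax1 for peaks (-0.41 kb, log2 -0.0253) and, for bins, Pax2 (1.49 kb, log2 0.0784) and Pax6 (3.78 kb, log2 0.15). The fit on peaks turned Pax2 (log2 0.11, and 0.0303 scaled) and Pax6 (log2 0.0848, and 0.0040 scaled). The cause was not tested. Rows passing over the genome numbered 0 as reported, 30 higher and 622 lower of 12952 without a minimum coverage, 173 and 341 with equal totals, and 398 and 259 with scaled peaks. The scaled peak fit, an equal number of widest peaks and the count of edges with its alternatives were chosen after seeing the data. Of 324 recomputed values, 292 kept their direction and side of the threshold or moved little. Some of these could not change direction, so the count does not measure robustness. The replicate block leaves every difference as it was, and the minimum coverage and tile size leave the log2 differences of the intervals as they were. A difference of 0 also counted as kept. Unknown depth limits what an uncalled base can show.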
